A study of Mus musculus with 24 samples.

Results

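Messenger RNA of a Nur77 line and a GFP line of RAW 264.7 cells, an established mouse macrophage-like line, was compared after 5 h of lipopolysaccharide (LPS), a bacterial cell wall component. The libraries were chosen by their labels, 4 of the Nur77 line and 4 of the GFP line, which is 8 of the 24 libraries in the series. Where a gene had several transcripts, the one with the highest mean count stood for it. Each construct was carried by 1 stable line, in which doxycycline switches on either Nur77 or, in the control, the green fluorescent protein GFP. Doxycycline was given to all cells, controls included, at 50 ng/ml for 18 h, and the 5 h groups then received LPS at 500 ng/ml for 5 h. The 4 libraries of each line at 0 h, with doxycycline and no LPS, are set beside them, and shared no library with the 5 h comparison. With 1 line for each construct, an effect of Nur77 and any other difference between the lines cannot be told apart. The labels leave unsaid whether replicates were separate cultures, and the p-values therefore reflect only how far these libraries spread, which may be technical.

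Nur77 is the protein of Nr4a1, an orphan nuclear receptor that macrophages make within minutes to hours of an inflammatory stimulus. It binds DNA at the NBRE element and can also act on other transcription factors. LPS is sensed by Toll-like receptor 4, which activates NF-kB and the MAP kinases through one adaptor branch and the interferon factor IRF3 through the other. The MAP kinases feed AP-1, a family of dimers of Fos, Jun, Atf and Maf proteins, and the study concerns the control of AP-1 target genes by Nur77. After 5 h of LPS, early mediators, late mediators that need newly made proteins, and genes that answer to secreted interferon are all expressed.

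Of 12198 genes tested, 5655 (46.4%) differed between the lines at 5 h, 2678 higher (22.0%) and 2977 lower (24.4%) in the Nur77 line. Differences are given as log2 fold changes, positive where the Nur77 line was higher, with their standard error (SE), and "called" means an adjusted p under 0.05 in the quasi-likelihood test of edgeR. Most were small: the median size over the called genes was 0.46, and 289 higher and 820 lower genes differed by at least 1. In the same direction at both times 3356 genes were called, 59.3% of the 5 h calls and 68.9% of the 4870 genes (39.9%) called at 0 h. The 0 h calls were 2472 higher (20.3%) and 2398 lower (19.7%). A test of the difference between the 5 h and 0 h effects of the line, the interaction, called 961 genes (7.88%), 336 with a positive value (2.75%) and 625 with a negative one (5.12%). Values of the 4 libraries of one line did not overlap those of the other for 6265 genes (51.4%).

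The 5 h libraries held 12156130 to 29275847 counts. Levels are CPM, counts scaled to a common library size, which serve to compare libraries and not genes of different length. Where a pair of levels is given, the GFP line comes first, and ± is the SD over the 4 libraries of a line. The tests drew their estimate of spread from all 24 libraries, among them replicate 2 of the Nur77 line at 1 h, which stood apart from its group. Without it 3040 genes were higher and 3288 lower at 5 h, and with only the 8 libraries of 5 h the counts were 3414 and 3451. The interaction was then called in 1681 genes without it and in 2089 with only the 0 h and 5 h libraries. All 11 macrophage markers passed the count filter, with a summed level of 11510.0 to 12180.0 CPM in the GFP libraries and 8027 to 8643 CPM in the Nur77 libraries. Marker sums of fibroblasts and lymphocytes were at most 0.445 CPM in every library, with 4 of 8 and 6 of 10 markers at 0, and all 8 epithelial markers were at 0. The 7 endothelial markers summed to 37.7 to 41.5 CPM in the GFP libraries and 7.52 to 10.8 CPM in the Nur77 libraries. Most of this was Vwf, the gene of von Willebrand factor (36.8 and 5.66 CPM). Kdr went the other way (0.815 and 2.26 CPM), and of the 3 endothelial markers tested 1 was called higher and 1 lower. Neutrophil markers, 3 of 10 at 0, summed to 2.74 to 4.38 CPM and 1.73 to 2.86 CPM, mostly S100a8. The part of these other transcripts in the results was not tested.

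Genes of chromosome 12 were lower as a group in the Nur77 line. Their median log2 fold change was -0.45 over 435 genes at 5 h and -0.41 at 0 h, and 299 of them (68.7%) were lower and 15 (3.45%) higher at 5 h. Outside chromosome 12 the median was 0.015, with 22.8% lower and 22.6% higher of 11763 genes. The medians of the other chromosomes lay between -0.034 and 0.10. Where a gene named below lies on chromosome 12 this is said, and the part of the chromosome in its difference was not tested.

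**Figure D1:**
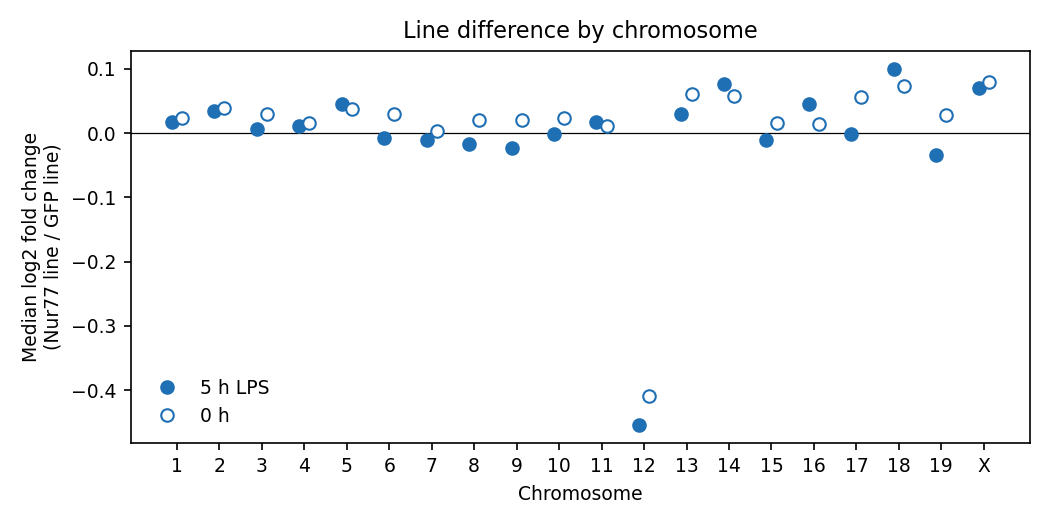
Median log2 fold change between the Nur77 and GFP lines of the genes tested on each chromosome, at 5 h of LPS (filled) and at 0 h (open); a point below 0 means lower in the Nur77 line. Chromosome 12 lies at -0.45 and -0.41, and each of the others between -0.034 and 0.10 at 5 h.

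Nr4a1 itself (NM_010444, chromosome 15, 101253902 to 101274795, GRCm38) was at 3.13, 3.12, 3.09 and 2.08 CPM in the 4 GFP libraries and at 4.51, 5.12, 5.20 and 4.74 CPM in the 4 Nur77 libraries. The values of the lines did not overlap, with the Nur77 line higher, but the log2 fold change of 0.74 (SE 0.37) was not called (adjusted p = 0.108). It was called without replicate 2 of the Nur77 line at 1 h and with only the 8 libraries of 5 h (adjusted p = 3.3e-05 and 0.000364). The Wald test of DESeq2, another method, called it as well over all 24 libraries. Which Nur77 sequence the construct carries, and of which species, was not given in the labels, so this level does not check them. Nr4a2 and Nr4a3, the other members of the receptor family, were lower in the Nur77 line. Nr4a3, an LPS-induced gene, was at 16.9, 16.3, 15.6 and 20.2 CPM in the GFP libraries and 9.03, 6.63, 5.87 and 8.39 CPM in the Nur77 libraries, which gave -1.19 (SE 0.16, adjusted p = 7.84e-07), and Nr4a2 differed by -0.89 (SE 0.17).

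Among the secreted mediators the cytokines were mostly lower and the chemokines more often higher. Of 21 cytokine genes tested, 12 were lower (57.1%) and 2 higher (9.52%) in the Nur77 line, with a median log2 fold change of -0.51 beside 0.0017 over all genes. Of 18 chemokine genes, 9 were higher (50.0%, beside 22.0% of all genes) and 4 lower (22.2%, near the 24.4% of all genes). Their median was 0.32. In the fit of only the 8 libraries the cytokines counted 15 lower and 5 higher and the chemokines 7 lower and 9 higher.

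Il1a and Il1b, the interleukin 1 ligands, were both lower, and so was Il1rn, the gene of the antagonist that blocks their receptor. Il1b (NM_008361, chromosome 2, 129364569 to 129371164) was at 913, 919, 955 and 939 CPM in the GFP libraries and at 464, 494, 504 and 469 CPM in the Nur77 libraries. Every Nur77 library stood below every GFP library, a difference of -0.95 (SE 0.15, adjusted p = 2.57e-05). Il1a differed by -0.93 (SE 0.13, adjusted p = 2.73e-06). The antagonist differed by more than either ligand. Il1rn (NM_001039701, chromosome 2, 24336860 to 24351491) was at 595, 593, 608 and 609 CPM for the GFP line and 124, 119, 122 and 117 CPM for the Nur77 line, -2.32 (SE 0.18, adjusted p = 5.55e-10), and had been lower before LPS as well (-2.90 at 0 h, adjusted p = 4.81e-10).

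The colony stimulating factors went opposite ways. Csf2 (NM_009969, chromosome 11, 54247270 to 54249899), the gene of GM-CSF, was at 158, 165, 161 and 172 CPM in the GFP libraries and 924, 761, 781 and 696 CPM in the Nur77 libraries, 4.82-fold higher on average (2.27, SE 0.56, adjusted p = 0.00273). Csf1, the gene of the macrophage growth factor M-CSF, was at 257 ± 16.4 CPM for the GFP line and 120.1 ± 4.35 CPM for the Nur77 line (SD, n = 4) and was lower (-1.10, SE 0.11, adjusted p = 1.44e-08). Lif, a cytokine of the interleukin 6 family, was lower too, from 596 ± 24.1 to 236 ± 11.5 CPM (-1.33, SE 0.08), as was Il15, a growth factor of natural killer and T cells, from 16.9 ± 1.21 to 4.98 ± 1.01 CPM (-1.78, SE 0.21). Tnfsf15, a ligand of the TNF family, stood at 5.91 ± 0.226 CPM for the GFP line and 0.524 ± 0.383 CPM for the Nur77 line (-3.57, SE 0.32). Il12b, a subunit of interleukins 12 and 23, was close to the detection limit, at 1.79, 3.38, 2.82 and 2.97 CPM in the GFP libraries and 0.564, 1.23, 0.446 and 0.820 CPM in the Nur77 libraries, and was lower (-1.89, SE 0.31, adjusted p = 5.09e-05). Ifnb1 and Il10 did not reach the count filter, with sums of 10.5 counts (GFP line) and 20 counts (Nur77 line) for Ifnb1 and of 6 and 0 counts for Il10.

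Tnf and Il6, the best known LPS cytokines, were not called. Tnf (NM_013693, chromosome 17, 35199367 to 35202007) was at 4094, 4078, 4196 and 4186 CPM in the GFP libraries and 5060.0, 5200.1, 5231 and 4778 CPM in the Nur77 libraries, with each Nur77 library above each GFP library. Its log2 fold change was 0.29 (SE 0.14, adjusted p = 0.0995), and it was called without replicate 2 of the Nur77 line at 1 h (adjusted p = 0.00435) and with only the 8 libraries (adjusted p = 5.64e-07). At 0 h Tnf had been higher in the Nur77 line by 1.23, and the interaction was called (-0.94, adjusted p = 0.00631). Il6 stood at 27.5 ± 3.73 and 18.5 ± 1.68 CPM, -0.56 (adjusted p = 0.101), and was likewise called in those other fits (adjusted p = 0.00113 and 8.33e-05).

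Single chemokine genes differed in both directions. Ccl2 and Ccl7, neighbouring genes of monocyte chemokines, were lower: Ccl2 (NM_011333, chromosome 11, 82035577 to 82037452) was at 2372, 2482, 2578 and 2346 CPM in the GFP libraries and 729.9, 685, 711 and 712 CPM in the Nur77 libraries, -1.79 (SE 0.42, adjusted p = 0.00182), and Ccl7 differed by -2.73 (SE 0.36), from 302 ± 14.9 to 45.4 ± 0.893 CPM. Cxcl10 and Cxcl11, neighbouring genes of interferon-induced ligands of the receptor CXCR3, were higher. Cxcl10 (NM_021274, chromosome 5, 92346638 to 92348889) was at 154, 164, 157 and 150.4 CPM in the GFP libraries and 505, 462, 460.2 and 474 CPM in the Nur77 libraries, 3.04-fold (1.61, SE 0.21, adjusted p = 2.83e-06). Before LPS its mean was already higher in the Nur77 line, at 0.337 CPM for the GFP line and 3.98 CPM for the Nur77 line at 0 h. Cxcl11, counted on a transcript that RefSeq lists as non-coding (NR_038116, chromosome 5, 92359544 to 92363296), was 6.80-fold higher (2.76, SE 0.15). Both pairs kept the lines apart without overlap. Ccl6, a macrophage chemokine, was higher (1.41, SE 0.13), and Ccl5, another interferon-related chemokine, had a log2 fold change of -0.28 that was not called in the fit of all libraries (adjusted p = 0.0927) but was in both other fits (adjusted p = 0.0225 and 0.000117).

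**Figure D2:**
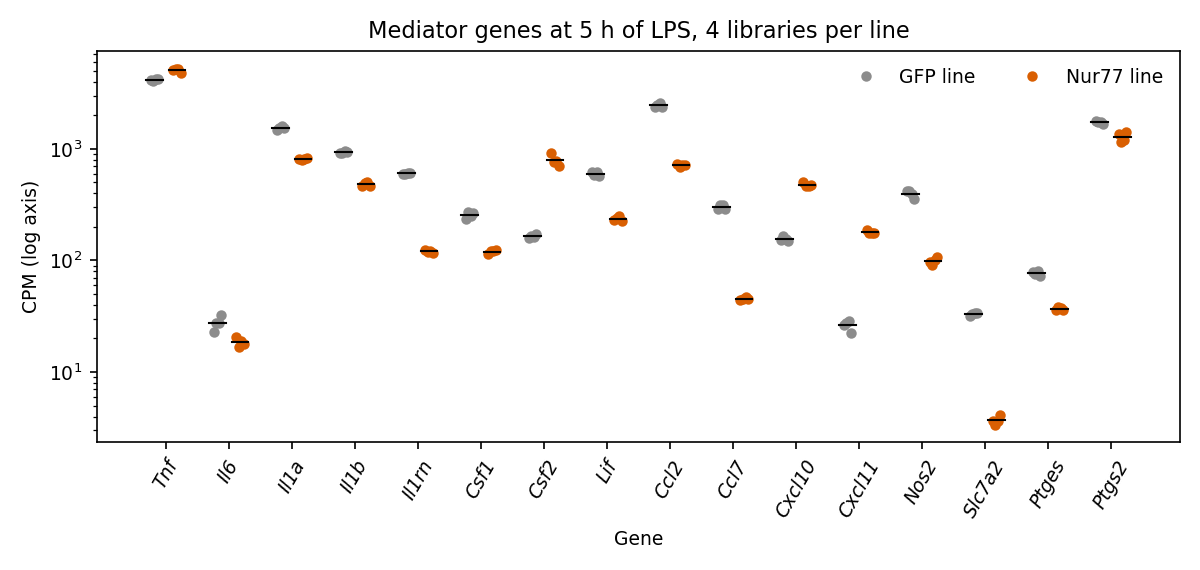
Level of 16 mediator genes in each 5 h library, in CPM on a log axis; points are libraries of the GFP line (grey) and of the Nur77 line (orange), and bars are group means, n = 4. Csf2, Cxcl10 and Cxcl11 lie higher in the Nur77 line, while Il1rn, Ccl2, Ccl7, Nos2 and Slc7a2 lie lower, with no overlap.

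Genes of nitric oxide formation and of its substrate's supply were mostly lower. Nos2, the inducible nitric oxide synthase (NM_010927, chromosome 11, 78920787 to 78960226), was at 418, 416, 397 and 352 CPM in the GFP libraries and 96.0, 91.1, 102 and 107 CPM in the Nur77 libraries, which did not overlap (-2.00, SE 0.14). Slc7a2, the transporter that supplies its substrate arginine, was at 31.6, 32.9, 33.5 and 34.1 CPM in the GFP libraries and 3.61, 3.39, 3.64 and 4.10 CPM in the Nur77 libraries, 8.96-fold lower (-3.17, SE 0.13, adjusted p = 1.5e-16). Of the enzymes that remake arginine from citrulline, Ass1 was lower (-1.40, SE 0.13) and Asl (-0.41, SE 0.07). Arg2, an arginase gene on chromosome 12 that competes for the same substrate, was at 19.3 ± 1.39 and 3.96 ± 0.645 CPM (-2.30, SE 0.16). Altogether 6 of 10 genes of nitric oxide, arginine and tryptophan use were lower and 1 was higher (median -0.43).

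Of the prostaglandin and leukotriene genes 8 of 15 were lower (53.3%) and 2 higher (13.3%), beside 24.4% and 22.0% of all genes (median -0.32). Ptges, the inducible prostaglandin E synthase, went from 76.9 ± 4.07 to 36.9 ± 0.992 CPM (-1.06, SE 0.18, adjusted p = 4.14e-05), and Ptger4, a receptor for its product, from 5.33 ± 0.379 to 2.13 ± 0.309 CPM (-1.32, SE 0.22). The leukotriene genes Alox5 (-0.33) and Alox5ap (-0.29) were lower by less. Ptgs2, the inducible cyclooxygenase upstream of Ptges, was at 1757, 1733, 1737 and 1680.4 CPM in the GFP libraries and 1344, 1139, 1210.3 and 1405 CPM in the Nur77 libraries, all below the GFP values, and was not called (-0.44, adjusted p = 0.171) but was without replicate 2 of the Nur77 line at 1 h and with only the 8 libraries (adjusted p = 0.000725 and 2.05e-05). Acod1, which makes itaconate, had 4307 ± 77.6 and 3538 ± 89.7 CPM and was not called either (-0.28, adjusted p = 0.15) but was with the 8 libraries alone (adjusted p = 2.31e-07). The acute phase gene Saa3 was lower (-1.17, SE 0.08), as was Cyba, a subunit of the NADPH oxidase (-0.63, SE 0.07), while the inflammasome receptor Nlrc4 was higher (0.81, SE 0.13). Panx1, a channel that releases ATP, was at 12.5 ± 1.55 and 5.16 ± 1.02 CPM and was lower (-1.27, SE 0.12), and so was P2rx4, a receptor for ATP (-0.62, SE 0.08). Of the 21 genes of itaconate, inflammasomes and microbial killing 8 were lower (38.1%) and 4 higher (19.0%), beside 24.4% and 22.0% of all genes. With only the 8 libraries 13 of them were lower and 5 higher.

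Receptors of cytokines were lower in 12 of 24 (50.0%) and higher in 7 (29.2%), beside 24.4% and 22.0% of all genes. Tnfrsf1b, the second receptor of TNF (NM_011610, chromosome 4, 145212368 to 145246870), was at 1628, 1711, 1680.0 and 1665 CPM in the GFP libraries and 494, 557, 556 and 529 CPM in the Nur77 libraries, 3.13-fold lower (-1.65, SE 0.06, adjusted p = 4.85e-17), and its difference was larger than at 0 h (-0.66, interaction -0.99, adjusted p = 2.35e-08). Csf2rb, a signalling chain of the GM-CSF receptor, was lower (-0.67, SE 0.07). Higher were Il17ra (1.11, SE 0.07), Il6ra (1.26, SE 0.14) and the interferon gamma receptor chain Ifngr1 (0.62, SE 0.07). Toll-like receptors and their adaptors had 10 of 30 lower and 7 higher, near the share of all genes on the higher side (23.3% beside 22.0%) and above it on the lower side (33.3% beside 24.4%). Tlr13, a sensor of bacterial ribosomal RNA, was lower (-1.32, SE 0.10), as was Tlr8 (-1.44, SE 0.22), and Ikbkb, the kinase that releases NF-kB, was higher (0.37, SE 0.05).

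Of 17 AP-1 subunits 5 were lower (29.4%) and 4 higher (23.5%), near the shares of all genes (24.4% and 22.0%), with a median of 0.062. Atf3, a subunit that often represses, was at 394, 424, 423 and 402 CPM in the GFP libraries and 119, 129.6, 121 and 122 CPM in the Nur77 libraries, -1.74 (SE 0.08, adjusted p = 1.09e-15). Jund went from 124 ± 7.78 to 53.2 ± 3.38 CPM (-1.22, SE 0.09), and Batf, a partner of Jun proteins on chromosome 12, from 5.25 ± 0.853 to 1.12 ± 0.297 CPM (-2.21, SE 0.23). On the higher side, Jun was at 42.6, 42.4, 44.1 and 44.2 CPM in the GFP libraries and 80.2, 76.5, 76.2 and 72.4 CPM in the Nur77 libraries (0.82, SE 0.14, adjusted p = 3.98e-05). The AP-1 subunit Fosl1 was higher too (1.05, SE 0.15). Within the Jun family, Jun was thus higher and Jund lower, and Junb, at 271 ± 11.7 and 284 ± 14.9 CPM, was not called (0.06, 95% interval from -0.11 to 0.23). Neither Fosl2 (-0.02, 95% interval from -0.19 to 0.16) nor Fos, on chromosome 12, was called (0.05, 95% interval from -0.23 to 0.34). Both had been lower in the Nur77 line before LPS (-0.58 and -2.00), and the interaction was called for each (adjusted p = 0.00343 and 2.39e-08).

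Of 29 known targets of AP-1, 18 were lower (62.1%) and 4 higher (13.8%), beside 24.4% and 22.0% of all genes (median -0.95). Mmp12, the macrophage metalloelastase (NM_001320076, chromosome 9, 7344397 to 7360461), was at 33.7, 31.6, 35.6 and 31.3 CPM in the GFP libraries and 0.828, 0.577, 0.297 and 0.365 CPM in the Nur77 libraries, a 64.0-fold difference with the Nur77 line near the detection limit (-5.82, SE 0.22, adjusted p = 3.43e-17). Itgax, the integrin CD11c, went from 12.9 ± 0.662 to 1.73 ± 0.240 CPM (-2.85, SE 0.15), and Vim, the intermediate filament protein vimentin, from 1106 ± 45.3 to 478 ± 15.2 CPM (-1.21, SE 0.05). Hmox1, which breaks down haem, was lower as well (-1.15, SE 0.06). The same list had 13 lower and 5 higher at 0 h (median -0.59), and 5 of its members had a called interaction, all negative. Without replicate 2 of the Nur77 line at 1 h, and likewise with only the 8 libraries, 20 were lower and 8 higher.

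Promoters of 3 genes of the AP-1 and mediator results are shown, a target that was nearly lost, a chemokine that was higher and a cytokine that was lower. They run from 250 bases before to 50 after a start site in the RefSeq annotation of GRCm38.p6, 5′ to 3′ on the gene's strand, with matches to the AP-1 element TGANTCA in capitals. This element is its own reverse complement, so a match lies on both strands. Mmp12 has 2 annotated starts, and the one shown is the downstream one. The counts used for Mmp12 are those of NM_001320076, chromosome 9, 7344397 to 7360461, a transcript that begins at the upstream start, whose window holds no match.
Mmp12 (chr9:7347124-7347423, plus strand): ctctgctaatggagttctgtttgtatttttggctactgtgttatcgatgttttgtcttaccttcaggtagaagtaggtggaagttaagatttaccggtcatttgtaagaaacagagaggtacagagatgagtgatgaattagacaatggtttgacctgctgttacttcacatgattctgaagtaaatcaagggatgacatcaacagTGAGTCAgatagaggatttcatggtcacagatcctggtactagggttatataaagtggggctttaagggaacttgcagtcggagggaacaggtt
Cxcl10 (chr5:92348840-92349139, minus strand): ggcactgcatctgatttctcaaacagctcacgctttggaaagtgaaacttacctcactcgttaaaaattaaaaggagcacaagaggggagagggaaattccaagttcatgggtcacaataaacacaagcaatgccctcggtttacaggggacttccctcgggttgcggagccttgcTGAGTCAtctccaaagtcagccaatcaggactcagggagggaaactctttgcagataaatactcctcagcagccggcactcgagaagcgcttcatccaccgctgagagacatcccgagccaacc
Il12b (chr11:44399813-44400112, plus strand): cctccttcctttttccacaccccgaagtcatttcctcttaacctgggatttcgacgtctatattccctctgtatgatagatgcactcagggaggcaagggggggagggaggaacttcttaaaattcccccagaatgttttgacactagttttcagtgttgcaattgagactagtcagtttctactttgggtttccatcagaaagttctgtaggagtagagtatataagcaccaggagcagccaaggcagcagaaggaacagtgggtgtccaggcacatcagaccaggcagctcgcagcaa
The match begins 44 bases before the downstream start of Mmp12 and 74 before that of Cxcl10, with the same 7 letters TGAGTCA. The window of Il12b has no match. Nos2, Ccl2 and Hmox1 have no window shown.

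The AP-1 element occurred in the windows of 8.97% of 27025 genes with a promoter in the table and in 7.81% of 32851 windows. Among tested genes with a window it was in 6.11% of those higher, 7.8% of those lower and 5.48% of those not called at 5 h. Among LPS-induced genes it was in 13.0% of 277 lower and 11.3% of 186 higher ones. Of the 31 AP-1 target genes listed, tested or not, 23 had a window and 9 of these (39.1%) held it. They include Mmp3 and Mmp10, which did not reach the count filter, and Mmp12, which matched only at its downstream start. The list was made of known AP-1 targets, so this share is not a result of these data. The NBRE element AAAGGTCA, searched on both strands, was in the windows of 1.7% of all genes and in 1.51% of windows. It was in 1.27% of higher genes, 0.848% of lower genes and 1.3% of those not called, and in none of the 23 AP-1 targets.

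As a group, NF-kB genes went from mostly higher in the Nur77 line at 0 h to more often lower at 5 h. Of 27 genes of the NF-kB subunits, their inhibitors and close targets, 18 were higher and 2 lower at 0 h (median 0.45). At 5 h 3 were higher (11.1%) and 13 lower (48.1%), beside 22.0% and 24.4% of all genes (median -0.19). The interaction was negative and called in 14 and positive in none. Over all genes 5.12% were called negative, and among the 1011 LPS-induced genes 136 were. Of the 27 NF-kB genes 18 were LPS-induced. In the 8 libraries of 5 h alone 7 were higher and 15 lower. Nfkbia, the inhibitor that NF-kB itself induces, on chromosome 12, was LPS-induced over the 2 lines. It was at 46.8 CPM for the GFP line and 77.9 CPM for the Nur77 line at 0 h, and at 5 h at 796, 799, 818 and 791 CPM in the GFP libraries and 559, 521, 548 and 522 CPM in the Nur77 libraries. The line that had been higher by 0.73 before LPS was lower after it (-0.57, SE 0.07, interaction -1.31, adjusted p = 1.13e-09).

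Bcl3, a nuclear inhibitor that pairs with the p50 and p52 subunits, went from 0.76 at 0 h to -1.08 at 5 h (interaction -1.84, adjusted p = 1.39e-07), with 32.5, 32.6, 33.4 and 29.2 CPM in the GFP libraries and 15.2, 14.6, 15.9 and 14.9 CPM in the Nur77 libraries. Nfkbie, another cytoplasmic inhibitor, went from 0.78 to -0.94 (-1.71, adjusted p = 4.41e-05). Traf1, an adaptor of TNF receptors, was 1.91 at 0 h, where its level was under 4 CPM, and -0.19 at 5 h, with an adjusted p of 0.0365, and this call was lost on leaving out GFP line replicate 2, 3 or 4 or Nur77 line replicate 1 or 4. Relb, Nfkb2 and Birc3, chosen after their values were seen, showed the same crossing, from 1.00, 0.71 and 0.82 at 0 h to -0.27, -0.25 and -0.28 at 5 h. Tnfaip2, a TNF-induced gene on chromosome 12, was lower at both times (-1.06 and -1.44). Many members did not cross, and 11 of the 27 were not called at 5 h. Map3k14, the kinase of the alternative NF-kB pathway, was higher at 0 h and at 5 h (1.35 and 1.26), as was Tnip3, a partner of the inhibitor A20 (1.24 and 0.92).

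**Figure D3:**
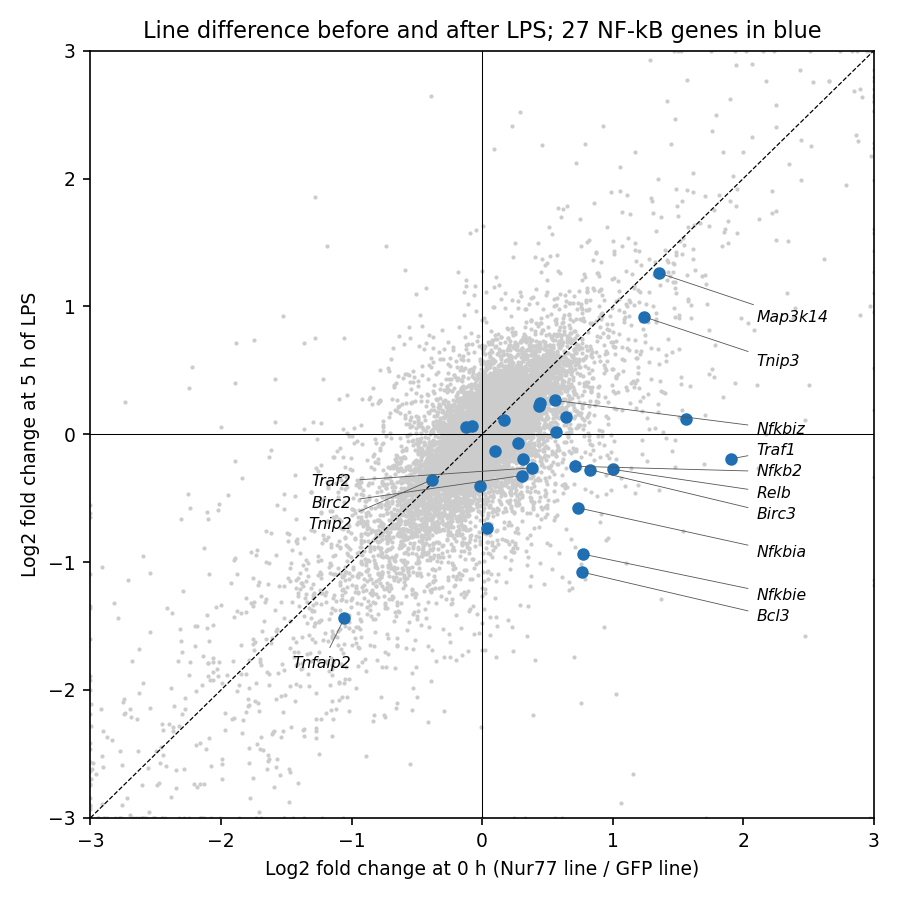
Log2 fold change between the Nur77 and GFP lines at 0 h (horizontal) against 5 h of LPS (vertical) for 12198 genes (grey, clipped at the frame) and the 27 NF-kB genes (blue, named where both differences are called). Most NF-kB genes lie to the right of 0 and below the diagonal.

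Over all 12198 genes the differences at 0 h and 5 h correlated at r = 0.814 (Spearman 0.681), a description across genes, which are not independent and share the 2 lines. Of the genes named above, Csf1, Ccl2, Ass1, Atf3 and Batf had been lower at 0 h as well, with no called interaction. Their differences at 0 h were -1.26, -1.38, -1.85, -1.44 and -2.69. Among 96 genes called in opposite directions, 69 were higher at 0 h and lower at 5 h and 27 the other way. Besides NF-kB genes the former included C3, the central complement component (0.96 and -0.81, interaction -1.78), and Marcks, a membrane-bound substrate of protein kinase C. Marcks was at 0.182 ± 0.0779 CPM for the GFP line and 4.04 ± 0.446 CPM for the Nur77 line at 0 h. At 5 h it was at 43.3, 45.3, 45.4 and 46.6 CPM in the GFP libraries and 21.7, 17.2, 18.6 and 22.2 CPM in the Nur77 libraries, so that its difference went from 4.44 to -1.18 (interaction -5.62, adjusted p = 2.2e-09). The other way went Usp18 and Oas3, both interferon-induced, the antiproliferative gene Btg2 (-0.68 and 0.67), the mTOR inhibitor Ddit4 (-0.79 and 0.50) and Gdpd5 (-0.55 and 0.75).

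Genes that hold signalling back were lower in 14 of 33 (42.4%) and higher in 11 (33.3%), beside 24.4% and 22.0% of all genes. Zfp36, the gene of tristetraprolin, which destabilises cytokine mRNA, was at 81.5, 85.0, 84.2 and 81.5 CPM in the GFP libraries and 159.7, 159.8, 160.0 and 144 CPM in the Nur77 libraries, higher without overlap (0.91, SE 0.07, adjusted p = 3.45e-11), and its relative Zfp36l2 was lower (-0.64, SE 0.08). The phosphatases of MAP kinases differed among themselves. Dusp1 (-1.11, SE 0.13) and Dusp4 (-0.79, SE 0.07) were lower and Dusp2 was higher (1.50, SE 0.21, from 8.13 ± 0.465 to 23.1 ± 2.66 CPM).

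Of 47 interferon-stimulated genes 16 were higher (34.0%, beside 22.0% of all genes) and 12 lower (25.5%, near the 24.4% of all genes), with a median of 0.038. Of these 47 genes 44 were LPS-induced. Their interactions were called in 17, 12 positive and 5 negative, a share of 25.5% positive beside 2.75% over all genes. Among all 1011 LPS-induced genes the called interaction was positive in 68 and negative in 136. Among the regulators of this response 8 of 27 were higher and 8 lower (29.6% each), not far from the shares of all genes, and with only the 8 libraries 13 were higher and 9 lower. Among its GTPases 4 of 15 were higher (26.7%) and 7 lower (46.7%).

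On the lower side stood Irf1, a transcription factor of the interferon and NF-kB responses (NM_008390, chromosome 11, 53770014 to 53778374). It was at 115, 124, 116 and 118 CPM in the GFP libraries and 35.4, 33.4, 36.8 and 33.4 CPM in the Nur77 libraries, 3.40-fold lower (-1.77, SE 0.20, adjusted p = 2.57e-07). At 0 h it had not been called (0.40), and the interaction was -2.17 (adjusted p = 5.18e-05). Guanylate-binding proteins encoded on chromosome 3, which attack intracellular microbes, were lower: Gbp2 went from 84.6 ± 5.98 to 18.5 ± 1.07 CPM (-2.20, SE 0.12), Gbp2b (-1.77, SE 0.09), Gbp3 (-0.84, SE 0.12) and Gbp5 (-1.58, SE 0.19). These genes are close relatives, and reads that fit several of them could have been split in the authors' counting. Stat5a, a factor downstream of cytokine receptors, was lower (-1.43, SE 0.09), having been at 0.06 at 0 h (interaction -1.49). Rsad2 and Cmpk2, neighbouring antiviral genes on chromosome 12, were lower, Rsad2 with 276, 306, 288 and 264 CPM in the GFP libraries and 82.7, 83.4, 78.3 and 95.3 CPM in the Nur77 libraries (-1.74, SE 0.17) and Cmpk2 (-1.09, SE 0.14). Neither had been called at 0 h (0.11 and 0.13), and the interactions were -1.85 (adjusted p = 0.00159) and -1.22 (adjusted p = 0.0262).

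On the higher side stood Eif2ak2, the RNA-sensing kinase PKR, at 172, 169, 162 and 156 CPM in the GFP libraries and 276, 256, 263 and 294 CPM in the Nur77 libraries (0.72, SE 0.08, adjusted p = 7.34e-08). Usp18, which restrains the interferon receptor, had been lower in the Nur77 line at 0 h (-1.28) and was higher at 5 h (0.75, SE 0.10, interaction 2.03, adjusted p = 1.38e-08). Oas3, of the RNase L pathway, crossed likewise (-0.86 and 0.29, interaction 1.16). Sp100 (0.64), Ifi44l (1.14) and the DNA sensor Cgas (0.56) were higher, as was Gbp9 (1.11, from 6.83 ± 1.13 to 14.7 ± 2.17 CPM), a guanylate-binding protein encoded on chromosome 5. Gbp8, from the same chromosome, was lower (-1.80).

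**Figure D4:**
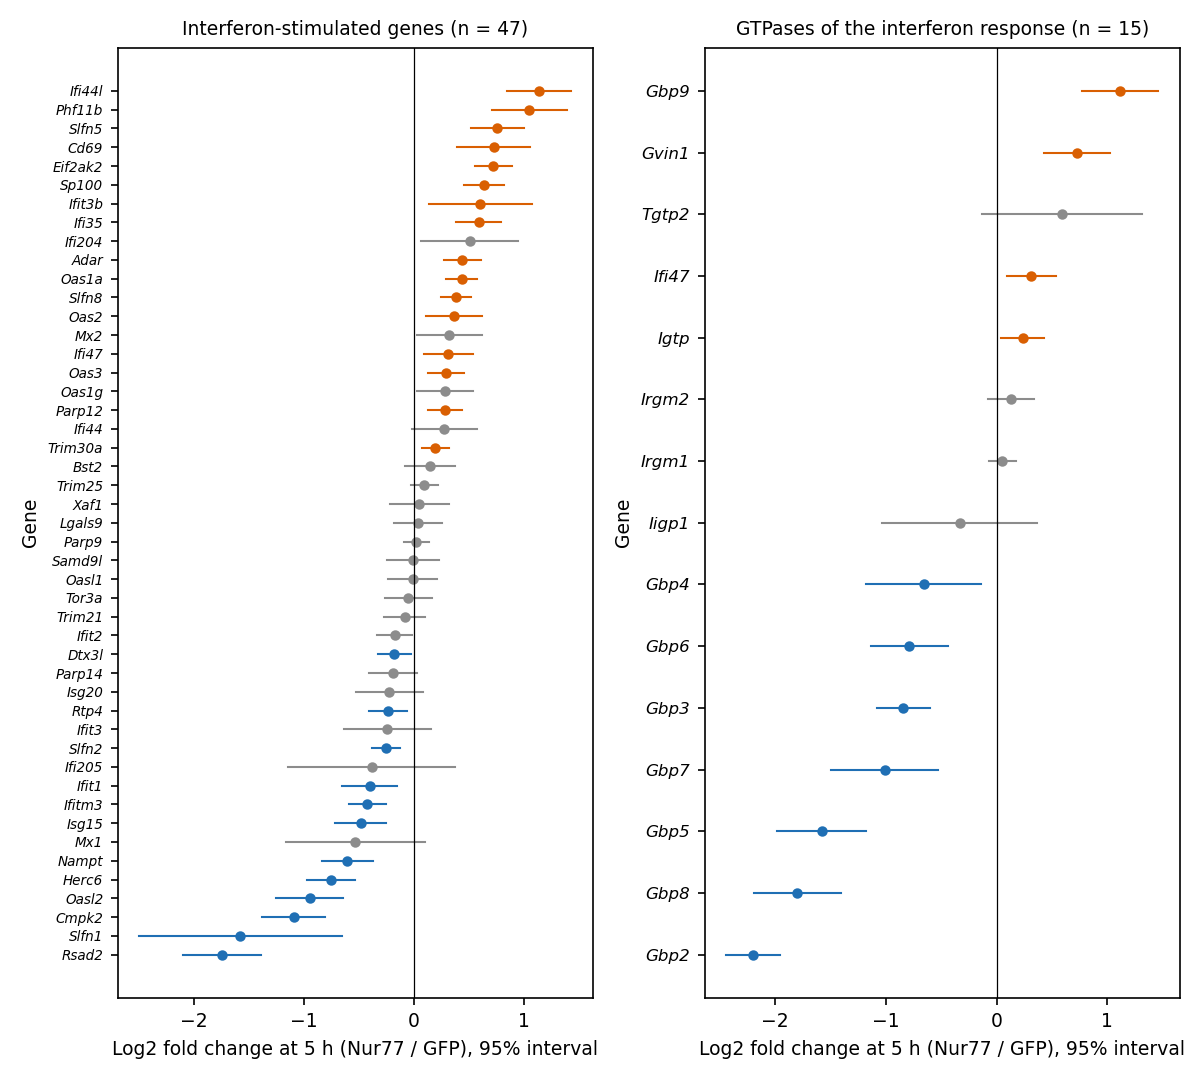
Log2 fold change between the Nur77 and GFP lines at 5 h for the 47 interferon-stimulated genes and the 15 GTPases tested, in order of size, with 95% intervals; orange marks genes called higher, blue lower and grey not called. Each list holds genes called on either side of 0.

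Genes of macrophage identity were lower in 15 of 21 (71.4%) and higher in 2 (9.52%), beside 24.4% and 22.0% of all genes. Their median was -0.52, and at 0 h 14 were lower and 2 higher. Lgals3, the gene of galectin 3, was at 1063, 1155, 1171 and 1104 CPM in the GFP libraries and 262, 292, 266 and 296 CPM in the Nur77 libraries (-2.01, SE 0.08, adjusted p = 3.96e-17). Mpeg1, the pore-forming perforin 2 of macrophages, was lower (-0.99, SE 0.08), and Lyz1, a lysozyme gene whose reads may be shared with Lyz2, (-2.93, SE 0.28). Against this trend Cd36, a scavenger receptor for oxidised lipid, was at 397, 395, 399 and 363 CPM in the GFP libraries and 1339.9, 1294, 1322 and 1398 CPM in the Nur77 libraries and was higher (1.78, SE 0.06, adjusted p = 1.17e-18). Among Fc receptors, complement and lectin genes 14 of 24 were lower (58.3%) and 5 higher (20.8%), beside 24.4% and 22.0% of all genes. The low-affinity Fc receptor Fcgr3 (-1.15, SE 0.10), the inhibitory receptor Pirb (-2.22, SE 0.15) and the beta-glucan receptor Clec7a (-1.65, SE 0.11) were lower. Higher were C5ar1, the receptor of complement fragment C5a (0.95, SE 0.06), and the galactose lectin Clec10a, from 33.8 ± 2.38 to 290.2 ± 13.0 CPM (3.10, SE 0.11). Mgl2, its relative on the same stretch of chromosome 11 and a lectin of alternatively activated macrophages, was at 1.62, 1.60, 1.82 and 1.78 CPM in the GFP libraries and 38.4, 39.4, 38.0 and 35.4 CPM in the Nur77 libraries (4.47, SE 0.22, adjusted p = 2.61e-14). The 2 lectins had been higher at 0 h as well (2.23 and 3.38), by less than at 5 h (interactions 0.87 and 1.08, adjusted p = 0.000281 and 0.0355).

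Lysosomal genes counted 27 of 34 (79.4%) lower and 1 higher, beside 24.4% and 22.0% of all genes, with a median of -0.45. At 0 h the counts were again 27 and 1, and the interaction was called in 1 member. Ctsd, the gene of the protease cathepsin D (NM_009983, chromosome 7, 142375910 to 142387827), was at 5205, 5457, 5443 and 5121 CPM in the GFP libraries and 1803, 1984, 2006 and 1912 CPM in the Nur77 libraries (-1.46, SE 0.06, adjusted p = 7.25e-17). Ctss, which trims class II antigens, was lower (-1.25, SE 0.08), Lgmn, the protease legumain, (-1.96, SE 0.10) and Npc2, a cholesterol carrier, (-1.23, SE 0.06); the last 2 lie on chromosome 12. Atp6v0d2, a subunit of the proton pump, went from 24.6 ± 1.29 to 0.891 ± 0.110 CPM (-4.77, SE 0.19, and -4.75 at 0 h). It is also an osteoclast gene, and RAW cells can form osteoclasts. Of 11 osteoclast genes 8 were lower (72.7%) and 2 higher (18.2%), beside 24.4% and 22.0% of all genes (median -1.39). The lower ones included Acp5, the tartrate-resistant acid phosphatase (-4.92, SE 0.21). It was at 37.0, 35.8, 37.2 and 32.2 CPM in the GFP libraries and 1.47, 1.30, 0.817 and 0.820 CPM in the Nur77 libraries. Also lower were Src (-2.46, SE 0.13), Itgb3 (-4.31, SE 0.29) and the chloride transporter Clcn7 (-1.39, SE 0.08). The differences of Acp5, Src and Clcn7 were larger than at 0 h (interactions -1.98, -0.76 and -0.87).

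Antigen presentation and costimulation genes counted 12 of 23 lower (52.2%) and 1 higher (4.35%), beside 24.4% and 22.0% of all genes. With only the 8 libraries 3 were higher. At 0 h 7 had been higher and 6 lower. The called interaction was negative in 8 (34.8%, beside 5.12% of all genes) and positive in none. Of the 23 genes 10 were LPS-induced, a class in which the called interaction was negative in 136 of 1011. Cd86, a ligand of CD28 on T cells, was at 29.9, 32.7, 31.4 and 31.1 CPM in the GFP libraries and 3.46, 2.09, 3.42 and 3.28 CPM in the Nur77 libraries, 10.2-fold lower (-3.33, SE 0.15). Its difference at 0 h had been -3.53, and the interaction was not called. Cd274, the inhibitory ligand PD-L1, was lower (-1.39, SE 0.15), more than at 0 h (-0.49, interaction -0.89). Icam1, an adhesion ligand for leukocyte integrins, was higher at 0 h (0.37) and lower at 5 h (-0.78, interaction -1.15, adjusted p = 5.19e-05), and so was Tapbpl, a peptide editor of class I molecules (0.48 and -0.65). Adhesion, integrin and matrix proteolysis genes counted 22 of 35 lower (62.9%) and 6 higher (17.1%), beside 24.4% and 22.0% of all genes. Their median was -0.59, and 10 were higher with only the 8 libraries. Layn, a hyaluronan receptor, went from 8.58 ± 0.773 to 0.206 ± 0.166 CPM (-5.27, SE 0.24). The SLAM receptors, encoded together on chromosome 1, diverged. Cd84 was nearly lost, with 56.6, 58.8, 55.6 and 52.7 CPM in the GFP libraries and 1.58, 1.01, 1.19 and 1.46 CPM in the Nur77 libraries (-5.37, SE 0.12). Cd48 (2.76, from 3.54 ± 0.364 to 23.8 ± 1.14 CPM), Slamf8 (2.24) and Slamf9 (0.91) were higher. At 0 h Cd84 had been at -5.65 and Cd48 at 2.53, and the interaction was called for no SLAM gene tested.

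Glycolysis genes counted 15 of 21 lower (71.4%) and none higher (median -0.27). Citric acid cycle genes counted 14 of 26 lower (53.8%) and 1 higher (3.85%), with a median of -0.17. Over all genes 24.4% were lower and 22.0% higher. The glucose transporter Slc2a1 was lower (-0.57, SE 0.08), Hk3, a hexokinase of myeloid cells, (-1.61, SE 0.10), Pfkfb3 (-0.58, SE 0.06) and Ldha, which makes lactate, (-0.47, SE 0.06). Idh1, a cytosolic isocitrate dehydrogenase, was lower (-0.85, SE 0.09), the succinate dehydrogenase gene Sdha (-0.27, SE 0.05) and Dlst, on chromosome 12, (-0.53, SE 0.04). LXR targets and lipid handling genes counted 13 of 22 lower (59.1%) and 4 higher (18.2%), beside 24.4% and 22.0% of all genes. The lipase gene Lpl was at -1.42 (SE 0.11) and the fatty acid carrier Fabp5 at -1.50 (SE 0.10). Of 23 sterol synthesis genes 8 were higher (34.8%) and 4 lower (17.4%) at 5 h, beside 22.0% and 24.4% of all genes. Their median was 0.057, and 11 were not called. At 0 h 3 had been higher and 6 lower. The interaction was positive and called in 6 (26.1%, beside 2.75% of all genes). Insig1, the sterol sensor of the endoplasmic reticulum, was at 47.2 ± 0.741 and 93.2 ± 2.07 CPM (0.98, SE 0.09) and was higher. Among Nrf2 genes 8 of 24 were lower (33.3%) and 5 higher (20.8%), beside 24.4% and 22.0% of all genes, with a median of -0.024. Slc48a1, a haem transporter (-1.59), the ferritin heavy chain Fth1 (-0.61) and Sqstm1, an autophagy adaptor (-0.93), were lower along with Hmox1.

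Proliferation and stress genes were on the higher side. Of 43 cell cycle genes 24 were higher (55.8%) and 6 lower (14.0%) at 5 h, beside 22.0% and 24.4% of all genes. At 0 h 31 were higher and 3 lower. Kif11, a motor of the mitotic spindle, was at 92.5 ± 4.50 and 155 ± 5.40 CPM (0.74, SE 0.09), whereas Cdkn1a, the inhibitor p21 (-0.68, SE 0.05), and Cdt1, which licenses replication (-0.95, SE 0.09), were lower. Of 31 genes of the unfolded protein and integrated stress responses 19 were higher (61.3%, beside 22.0% of all genes) and none lower (median 0.28). In the 8 libraries alone 24 were higher and 3 lower. Hspa5, the chaperone BiP, was at 1717, 1795, 1744 and 1744 CPM in the GFP libraries and 2674, 2833, 2751 and 2723 CPM in the Nur77 libraries (0.65, SE 0.06, adjusted p = 6.44e-09). Manf was higher (1.00, SE 0.08), the co-chaperone Dnajc3 (0.98, SE 0.07) and the transcription factor Xbp1 (0.69, SE 0.06). Heat shock chaperones had 6 of 13 higher (46.2%) and 3 lower (23.1%, near the 24.4% of all genes), with Hsph1 at 0.50 and Hspa8 at 0.45. Of 23 apoptosis regulators 10 were higher (43.5%, beside 22.0% of all genes) and 5 lower (21.7%, near the 24.4% of all genes). Their median was -0.0029. With only the 8 libraries 9 of them were higher and 8 lower. Without replicate 2 of the Nur77 line at 1 h 10 were higher and 8 lower. The necroptosis kinase Ripk3 was at 1.00. Of the survival genes of the BCL-2 family, Mcl1 was lower (-0.40, SE 0.07) and Bcl2a1d, whose reads may be shared with its close copies, was higher (0.53, SE 0.09). Cytosolic ribosomal protein genes served as a comparison: 2 of 42 were lower and none higher (median 0.041), and with only the 8 libraries 7 were higher. The 2 were Rps29, on chromosome 12 (-0.57), and Rpl3 (-0.22), whose call was lost without GFP line replicate 3 or Nur77 line replicate 1.

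**Figure D5:**
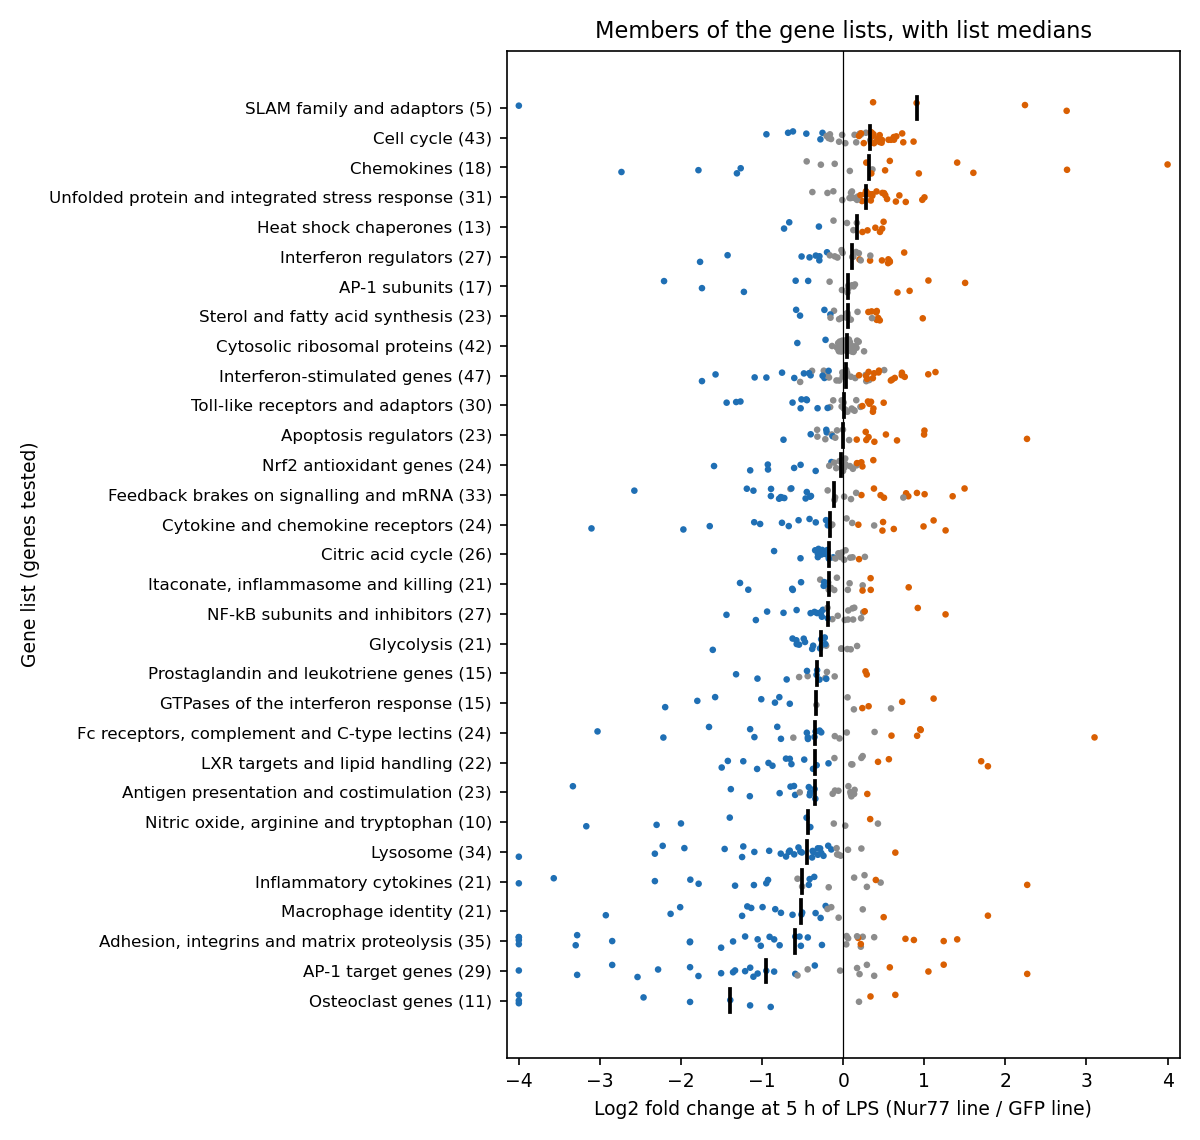
Log2 fold change between the Nur77 and GFP lines at 5 h for every tested member (points) of 31 gene lists, with list medians (bars); orange points were called higher, blue lower and grey not called, and values beyond 4 in size are drawn at the edge. Lysosome, osteoclast and AP-1 target genes lie mostly below 0, and unfolded protein response and cell cycle genes mostly above.

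The largest folds were those of genes barely expressed in one of the lines. Among genes of at least 10 CPM with no overlap, the highest in the Nur77 line were Alpl, a phosphatase (0.170 and 66.1 CPM in the 2 lines), the neurofilament gene Nefh (0.101 and 40.7), the chemokine gene Cxcl14 (0.0507 and 14.1) and the endothelin-converting enzyme Ece1 (0.392 and 61.9). Neo1, a receptor of netrins and guidance molecules, was at 0.250 and 13.6 CPM. The GFP line held 4 counts of Cxcl14 and 8 of Nefh over its 4 libraries. Alpl, Nefh, Cxcl14 and Ece1 had been apart at 0 h as well, with log2 fold changes of 8.65, 8.66, 7.56 and 7.07. The interaction was called for none of these 4 genes. Akap12, a scaffold of protein kinases A and C (NM_031185, chromosome 10, 4266329 to 4359471), differed from them. It was at 0.512 CPM for the GFP line and 1.66 CPM for the Nur77 line at 0 h, and at 5 h at 0.335, 0.534, 0.637 and 0.297 CPM in the GFP libraries and 17.5, 18.3, 20.3 and 18.0 CPM in the Nur77 libraries (interaction 3.52, adjusted p = 3.98e-06). On the lower side, next to Mmp12, Cd84, Acp5 and Atp6v0d2, were Cpe, a carboxypeptidase of hormone processing (44.5 and 1.05 CPM), Atp13a4 (23.1 and 0.821), and Scg2, the gene of secretogranin II (18.0 and 0.773). Cpe and Atp13a4 had been at -5.68 and -5.01 at 0 h, with no called interaction. Scg2 had been lower still at 0 h (-7.36, interaction 2.72, adjusted p = 0.00147).

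Genes induced by LPS, averaged over both lines, were more often lower than higher in the Nur77 line. Of 1011 induced genes 355 were lower (35.1%) and 239 higher (23.6%), with a median of -0.098, beside 240 and 219 at 0 h. Of 1066 repressed genes 382 were lower (35.8%) and 143 higher (13.4%), with a median of -0.22, and of the 10121 others 22.1% were lower and 22.7% higher. Some induced genes were called at 5 h that had not been called at 0 h. Besides Gbp2, Gbp2b, Ccl7 and Slc7a2 the lower ones included Ppfia3, a scaffold of presynaptic sites, at 23.5, 23.8, 21.7 and 22.7 CPM in the GFP libraries and 4.82, 4.04, 5.72 and 4.01 CPM in the Nur77 libraries (-2.29, -0.01 at 0 h, interaction -2.29, adjusted p = 1.37e-08), and the nuclear envelope gene Syne2 on chromosome 12 (-2.58). The higher ones included, besides Csf2, Dusp2, Ifi44l and Gbp9, the protease gene Tasp1 (1.11, interaction 0.82) and the class I-like gene H2-T24 (1.07). Of these 12 genes the interaction was called for Gbp2, Ppfia3, Syne2, Dusp2 and Tasp1, and not for the other 7.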

How the data were processed

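Messenger RNA of RAW 264.7 lines was extracted on columns with DNase treatment and made into KAPA mRNA HyperPrep libraries, per the labels' protocols. The deposited table holds expected counts per transcript, in steps of 0.5 and not normalized by the authors. CASAVA 1.8.2, HISAT2 2.1.0 and the mm10 build are named in the submitters' processing notes. The counting tool, its use of strand and the annotation are not stated there or in the labels, so reads of antisense or overlapping genes cannot be told apart.

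Counts were rounded, and each of 25160 genes was represented by the transcript of highest mean count. edgeR 4.0.16 (filterByExpr, TMM scaling, robust quasi-likelihood fit of 6 group means over 24 libraries, Benjamini-Hochberg adjustment) tested 12198 genes, and was tested on simulated data. A gene counted as LPS-induced or repressed when its change with LPS, averaged over the lines, was called and at least 1 on the log2 scale in size (Nr4a1 left out). Positions are those of GRCm38 in RefSeq. Alternatives were DESeq2, other scaling and filters, other sets of libraries, each library left out, and the replicate block.

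The groups compared, the gene lists and the choice of members were made with earlier results of these data known. Named genes were a fixed panel, the largest differences among genes of at least 10 CPM, the called members of smallest adjusted p in each list, LPS-induced genes called at 5 h and not at 0 h, and genes called in opposite directions. Some genes the rule names are not reported here. No duplicate libraries were found.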

Additional observations from a re-analysis of the deposited data

Results flagged for a closer look

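Within the 4 libraries of a line, 1 library lay far from the other 3 in 18 of 324 groups examined, 2 for each of the 162 genes described in the report. Chance alone sets about 1 in 20 such groups apart, and the share here was 5.56%. In the GFP line these were replicate 4 for Cd36 (363 CPM, below the rest) and Nr4a1 (2.08 CPM, below), replicate 1 for Dusp1 (8.27 CPM), Ece1 (0.223 CPM) and Relb (55.2 CPM), and replicate 2 for Gbp5 (228 CPM). In the Nur77 line they were replicate 1 for Cxcl11 (189 CPM), Hsph1 (233 CPM), Mcl1 (2274 CPM) and Mpeg1 (1122 CPM), and replicate 2 for Cd86 (2.09 CPM), Gbp2b (30.4 CPM) and Slamf9 (8.50 CPM). Replicate 3 was set apart for Neo1 (15.6 CPM) and Panx1 (3.64 CPM). Replicate 4 was set apart for Arg2 (4.92 CPM), Ccl6 (19.3 CPM) and Zfp36 (144 CPM).

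The difference between the lines was not the same at 5 h as at 0 h for 65 of these genes by the interaction test (edgeR, adjusted p under 0.05). The values below are the 5 h log2 fold change minus that at 0 h. Among genes of NF-kB and inflammatory signalling they were -2.10 for Traf1, -1.84 for Bcl3, -1.71 for Nfkbie, -1.31 for Nfkbia, -1.27 for Relb, -1.10 for Birc3, -0.96 for Nfkb2, -0.94 for Tnf, -1.13 for Acod1, -1.78 for C3 and -1.15 for Icam1. Tnfsf15 had -6.54, a value that depends on the prior count, since all 4 GFP libraries were at 0 before LPS. Among receptors they were -0.99 for Tnfrsf1b, -0.50 for Csf2rb, 0.67 for Il6ra, -0.70 for Tlr13, 1.35 for Tlr8, -0.83 for Clec7a, 0.87 for Clec10a and 1.08 for Mgl2.

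Interferon genes had negative values for Irf1 (-2.17), Gbp2 (-2.58), Rsad2 (-1.85), Cmpk2 (-1.22), Stat5a (-1.49), Cd274 (-0.89) and Tapbpl (-1.13). They were positive for Usp18 (2.03), Oas3 (1.16), Eif2ak2 (0.68) and Sp100 (0.58). Among AP-1 subunits and brakes on signalling the values were 2.05 for Fos, 0.56 for Fosl2, -0.51 for Jund, 1.07 for Dusp2, -0.92 for Dusp1, 0.45 for Zfp36 and -0.72 for Zfp36l2.

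Stress, sterol and lipid genes had 0.37 for Manf, 0.29 for Xbp1, 0.45 for Hspa8, 0.33 for Hsph1, 1.29 for Ddit4, 1.35 for Btg2, 0.52 for Insig1, 0.70 for Fabp5 and 0.29 for Cd36. Lysosomal, osteoclast and iron or haem genes had -1.98 for Acp5, -0.76 for Src, -0.87 for Clcn7, 0.27 for Fth1, -0.45 for Slc48a1 and -0.62 for Sqstm1. The remaining values were -5.62 for Marcks, 3.52 for Akap12, 2.72 for Scg2, -2.29 for Ppfia3, -2.02 for Syne2, -1.03 for Arg2, -1.13 for Panx1, -0.61 for Cdt1, -0.38 for Alox5, 0.83 for Ccl6, 0.82 for Tasp1 and 1.30 for Gdpd5.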

How the results depend on the processing

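The count of genes called at 5 h lay between 5059 and 6865 over 18 alternatives, with 2315 to 3414 higher and 2713 to 3451 lower, each within 1.5 times of the value reported. DESeq2 called 2875 higher and 2913 lower. The interaction moved further: 961 genes, 336 positive and 625 negative, became 2089, 920 and 1169 with only the libraries compared, and 1681, 642 and 1039 without replicate 2 of the Nur77 line at 1 h; the cause was not tested. No named gene reversed, and 183 of 192 kept their call under each of the 18 alternatives that gave them an adjusted p. Acod1, Ccl5, Il6, Nr4a1, Ptgs2 and Tnf gained a call with only the 8 libraries, while Traf1, S100a8 and Rpl3 lost theirs under some that leave out a library, and Traf1 and S100a8 also with no count filter. DESeq2 over the 24 libraries gave no adjusted p for Ccl2, which is counted among the 183 by the other alternatives.

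The replicate numbers of the 2 lines did not pair the libraries: deviations of same-numbered libraries correlated at 0.134, -0.0198, 0.0308 and -0.0166. With the replicate number as a block 2592 genes were higher and 2918 lower, and no named gene changed its call. The 5 h libraries held at least 12156130 counts, and genes under the count filter could not be compared at this depth.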
